A study of Mus musculus with 8 samples.

Results

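The genes of the proteasome and its regulators were examined in the RNA of bone marrow-derived macrophages (BMDMs), cells that develop from marrow precursors in culture. Members were taken by symbol: every listed mouse gene whose name starts with Psma, Psmb, Psmc, Psmd, Psme, Psmf or Psmg and a number, with 4 pseudogenes marked -ps left out. This gave 49 of the 23761 listed genes. One of them, Psmc3ip, matches the name rule but codes for no part of the proteasome, and at a mean of 0.898 FPKM it lay under the expression limit used below, so 48 members were tested.

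BMDMs came from 4 control mice and 4 myeloid KLF2 knockout mice, all 3 months of age and on a C57BL/6J background, with 1 library per mouse. Control mice (LysM) carry Cre recombinase driven by lysozyme M on both alleles (LysM Cre/Cre), and knockout mice (K2KO) carry the same Cre/Cre with KLF2 flox/flox, so both groups carry Cre and Klf2 can be deleted in myeloid cells only. Marrow was cultured for 6 days in medium conditioned by L929 fibroblasts, and the sample descriptions mark all 8 libraries as vehicle. Expression was given as FPKM, a read count divided by transcript length and by library size, so levels of different genes can be set side by side. Libraries are called LysM0 to LysM3 and K2KO0 to K2KO3 by the numbers of the table's columns, which do not say which mouse is which. Over all genes the FPKM of a LysM library added up to 497253 to 551608, and those of a K2KO library to 448235 to 501965. FPKM keep no record of sequencing depth.

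Klf2 was read first as a check of the labels. Its level was 44.1, 52.9, 64.7 and 72.8 FPKM in the LysM libraries and 45.5, 41.6, 59.2 and 59.3 FPKM in those labelled K2KO. The groups overlapped, and the log2 fold change of −0.18 (SE 0.17, limma adjusted p = 0.460) did not pass the test, so the genotype below is that of the label. Every direction given here is that of the libraries labelled K2KO against the LysM libraries. Macrophage markers were present in all libraries, with Cd68 at 1834 ± 129 FPKM in LysM and 1779 ± 104 in K2KO (SD, n = 4), and Csf1r, the receptor that the conditioned medium engages, at 524 ± 15.5 and 526 ± 53.2.

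The proteasome is the protease complex that breaks down proteins tagged with ubiquitin. Its 20S core is a barrel of alpha and beta rings, in which Psmb5, Psmb6 and Psmb7 code for the catalytic beta subunits. The 19S particle caps the core, with a base that unfolds substrates through a ring of ATPases and a lid that removes ubiquitin. In immune cells, interferon induces Psmb8, Psmb9 and Psmb10, which replace the catalytic subunits and form the immunoproteasome, and also the activator PA28, which opens the core without ubiquitin. Macrophages use both forms to make peptides for display on MHC class I.

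All parts of the complex were transcribed in BMDMs. The highest level was that of Psmb6, at 295 ± 6.64 FPKM in LysM and 274 ± 26.2 in K2KO. Psmd8, a lid subunit, followed at 228 ± 27.9 and 212.5 ± 20.8 FPKM. Psmb1 and Psme1 came next, both at 189 FPKM in LysM with SDs of 21.7 and 33.2, and the order of these and of Psmd8 cannot be told from their spread. At the other end stood Psma8, an alpha subunit known from the testis, with 1.11 ± 0.287 FPKM in LysM and 1.42 ± 0.112 in K2KO. Inducible subunits differed in their level beside their standard partners. Psmb8 was at 151 ± 23.8 FPKM in LysM where Psmb5 was at 149 ± 5.02. A near-identical pseudogene of Psmb5, Gm3375, was listed at a further 40.3 ± 1.81 FPKM in LysM. Psmb10 was at 104 ± 16.0 FPKM where Psmb7 was at 80.0 ± 2.66, and Psmb9 at 72.8 ± 15.3 where Psmb6 was at 295 ± 6.64. Summed over genes, standard beta subunits reached 1104 ± 32.4 FPKM in LysM and 963 ± 95.01 in K2KO, while the 3 inducible ones reached 328 ± 54.4 and 312 ± 57.3. All 23761 listed genes together summed to 531755 ± 23776 FPKM in LysM and 473577 ± 23980 in K2KO, so class sums stand beside a lower total in K2KO.

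Of the 48 tested members, 2 were called higher and 3 lower in K2KO by the thresholds of the study, which ask for an adjusted p below 0.05 and a log2 fold change beyond 0.26 either way. That is 10.4% of the members, and 18.4% of all 10920 tested genes met the same rule. In each direction the share of all tested genes was 9.84% higher and 8.61% lower, or 1074 and 940 genes, a split that upper-quartile scaling moved to 1504 and 564. Genes called lower were Psmg2, Psmg3 and Psmd4, and genes called higher were Psmd1 and Psma3. The count moved with single libraries: it was 14 without K2KO3, 9 without LysM0, 3 without LysM2 and 2 without any one of the other 5. Calls over all tested genes moved too, from 2014 to 2863, 2400 and 1111 in these fits, and to 543 to 823 without any one of the other 5. The median log2 fold change of the members was −0.10 against 0.01 over all tested genes, with 33 of 48 below 0. At an unadjusted p under 0.05, 13 members were lower and 2 higher, where 37.8% of all tested genes passed, 18.1% lower and 19.7% higher. Groups of 4 did not overlap for 4 members, lower for Psmg2 and Psmb5 and higher for Psmd1 and Psma3, beside 23.1% of all tested genes, 10.2% lower and 12.9% higher.

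The members are abundant, short transcripts, and other genes like them also sat below 0. Among the 1380 tested genes with a mean of 50 to 300 FPKM, the median log2 fold change was −0.14, and for the 28 members in that range it was −0.16. Of these 28 members, 26 were below 0. The 4 members at or below the median level of all tested genes (9.98 FPKM) were all above 0, with a median of 0.25, where all tested genes on that side had 0.09. By GC content, the 23 members above the median of 49.7% had a median of −0.19 with 21 below 0, where all tested genes on that side had −0.08. The 25 members at or below it had a median of 0.00, where all tested genes had 0.11. Quantile normalization gave the members a median of 0.02 with 23 of 48 below 0, and a correction for GC content and length gave −0.05 with 32 below 0, so the sign of the median turned with the scaling. The part of level, length and GC content in single calls was not tested apart from these alternatives.

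**Figure D1:**
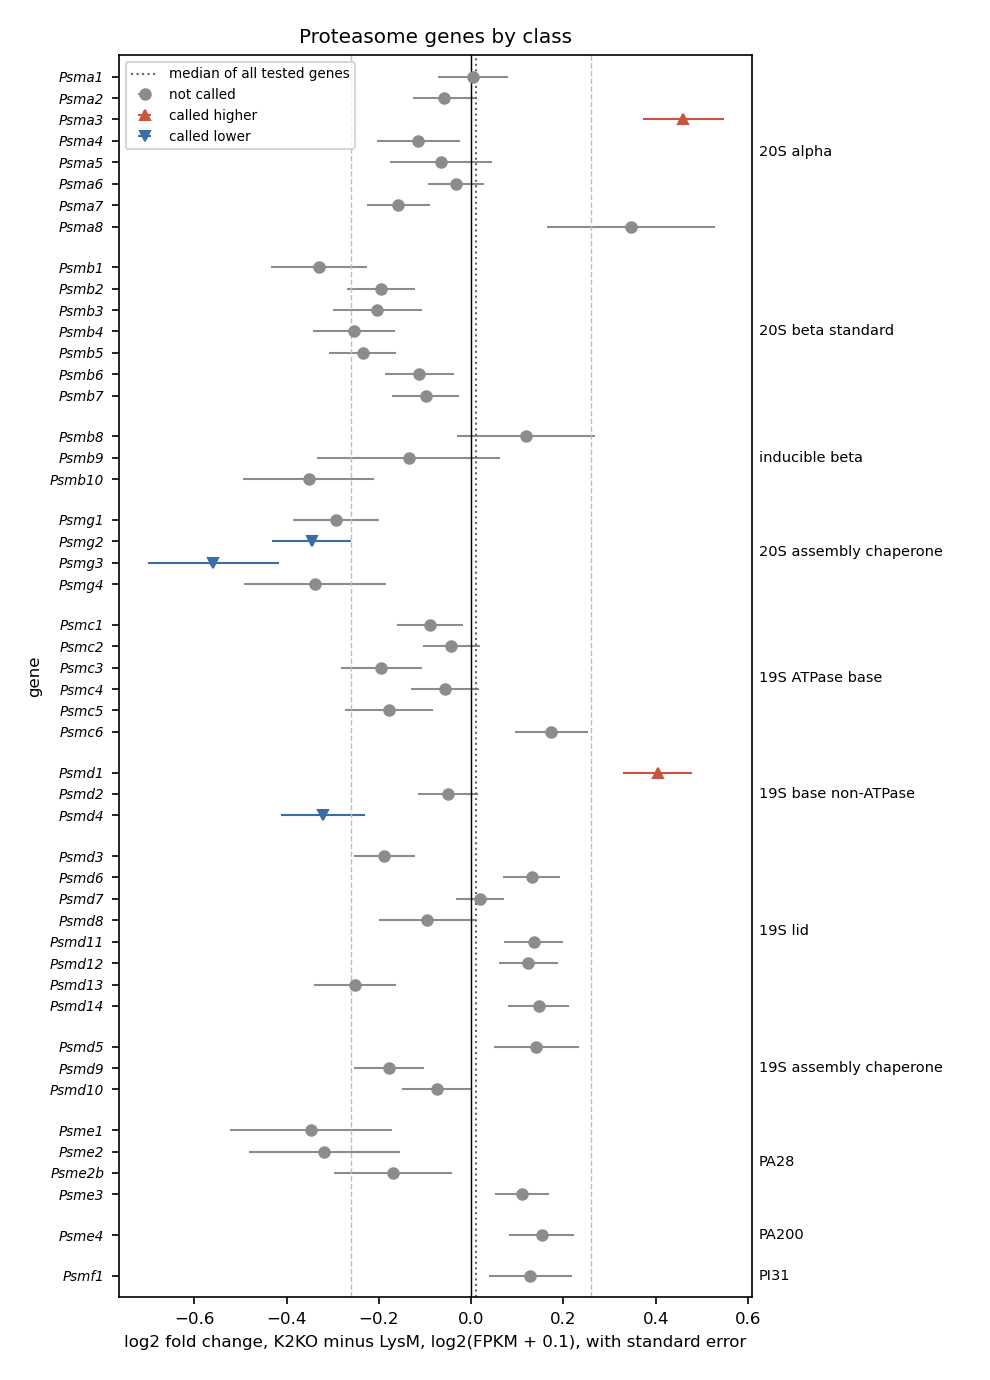
Log2 fold change (K2KO minus LysM, on log2(FPKM + 0.1), horizontal axis) with its standard error for each of the 48 tested genes (vertical axis), grouped by class. Dashed lines mark the fold limit of 0.26 and the dotted line the median of all tested genes; all 7 standard beta subunits and all 4 core chaperones lie left of 0, while Psma3 and Psmd1 stand to the right.

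In the 20S core, the beta ring and the alpha ring differed in where their genes lay, without a test of that difference. All 7 standard beta subunits had a log2 fold change below 0, with a median of −0.20 and a range from −0.33 (Psmb1) to −0.10 (Psmb7). None was called. Psmb5, the chymotrypsin-like catalytic subunit, was at 154, 150, 150 and 142 FPKM in LysM and at 114, 126, 127 and 142 FPKM in K2KO. Every K2KO library was lower than every LysM library, K2KO3 by the least. Its log2 fold change of −0.23 (SE 0.073, limma adjusted p = 0.0493) lay under the fold limit. For Psmb5 it shrank to −0.021 (adjusted p = 0.856) with GC content and length corrected for, and to −0.081 (adjusted p = 0.405) under quantile normalization. Summed with its pseudogene Gm3375, Psmb5 was at 190 ± 5.05 FPKM in LysM and 162 ± 15.0 in K2KO. The log2 fold change of that sum was −0.23 (limma adjusted p = 0.0517), and its groups did not overlap either. Psmb6, the caspase-like subunit, was at 298, 301, 286 and 297 FPKM in LysM and at 251, 263, 271 and 312 FPKM in K2KO, so the groups overlapped through K2KO3 alone. Its log2 fold change was −0.11 (adjusted p = 0.297). Psmb7, the trypsin-like subunit, was at 80.0, 82.2, 81.5 and 76.2 FPKM in LysM and at 67.5, 71.1, 81.0 and 79.9 FPKM in K2KO, and both K2KO2 and K2KO3 fell inside the LysM range. Among the non-catalytic beta subunits, Psmb1 had a log2 fold change of −0.33 (adjusted p = 0.0527) and Psmb4 of −0.25 (adjusted p = 0.0688), neither past the threshold. With GC content and length corrected for, 6 of the 7 were below 0 and the median was −0.13, and under quantile normalization 5 of the 7 and −0.08.

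The 8 alpha subunits had a median of −0.05, with 5 below 0 and Psma3 alone called. With GC content and length corrected for, the alpha median was −0.01 with 4 below 0, and under quantile normalization 0.09 with 2 below 0. The median GC content was 44.5% for alpha and 51.0% for standard beta subunits, on opposite sides of the 49.7% split used above. The part of GC content in the difference between the rings was not tested. Levels of the other alpha subunits apart from Psma8 and Psma5 lay between 80.3 FPKM (Psma4) and 121 FPKM (Psma2) in LysM. Psma3 was listed at only 3.60, 3.496, 3.72 and 3.36 FPKM in LysM and at 4.78, 5.32, 5.39 and 4.24 FPKM in K2KO. All K2KO libraries were above all LysM libraries, and the log2 fold change was 0.46 (SE 0.088, limma adjusted p = 0.0135). This low level has to be read beside a copy of the gene.

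Psma3 lies at chr12:70974621-70996347 on the plus strand (GRCm38, GENCODE M21), and the processed pseudogene Gm13835, an intronless copy, lies at chr6:31141979-31142663 on the minus strand. Over 662 aligned bases of the Psma3 coding sequence the copies held 0 differences. Gm13835 was listed at 94.2, 100, 110 and 92.5 FPKM in LysM and at 91.8, 97.8, 94.7 and 98.8 FPKM in K2KO, a level like that of the other alpha subunits. Windows of 60 bases, at positions 252 to 311 of the coding sequence, are printed to show that a read from this stretch matches both genes. Capitals mark bases that differ from Psma3, as in Gm4742, another processed pseudogene (chr14:52368918-52369688, minus strand), which was listed at a mean of 1.24 FPKM in LysM.
Psma3: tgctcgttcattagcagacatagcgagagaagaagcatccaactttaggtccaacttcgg
Gm13835: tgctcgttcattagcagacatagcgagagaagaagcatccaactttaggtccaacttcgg
Gm4742: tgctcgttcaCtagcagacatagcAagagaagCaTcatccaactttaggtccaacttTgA
Summed over Psma3 and its 3 listed copies, the level was 104 ± 8.17 FPKM in LysM and 103 ± 3.51 in K2KO, of which 4.10% was listed at Psma3. The log2 fold change of the sum was −0.02 (SE 0.068, limma adjusted p = 0.847). The call of Psma3 was lost once its copies were added. Gm13835 makes up most of the sum, so a change of Psma3 alone can barely move it. The sum therefore does not say whether Psma3 itself changed. The 4.10% is a share of FPKM and not of reads, since each FPKM is divided by its own transcript length.

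Psma5 also has similar pseudogenes with FPKM of their own. It was listed at 22.6 ± 2.86 FPKM in LysM, and its processed pseudogenes Gm8394 (chr10:85313488-85314439, plus strand) and Gm12989 (chr4:135715868-135716598, minus strand) had means of 18.3 and 13.4 FPKM over all libraries. Psma5 itself lies at chr3:108256926-108279974 on the plus strand. Gm8394 matched its coding sequence with 8 differences in 723 bases, of which positions 269 to 328 are printed here with the differing bases in capitals.
Psma5: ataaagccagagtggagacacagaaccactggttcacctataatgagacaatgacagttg
Gm8394: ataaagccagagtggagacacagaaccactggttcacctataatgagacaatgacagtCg
Gm12989: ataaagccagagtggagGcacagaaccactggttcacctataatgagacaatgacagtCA
Psma5 and both copies summed to 53.0 ± 4.63 FPKM in LysM and 54.5 ± 4.06 in K2KO, with a log2 fold change of 0.04 (adjusted p = 0.733). Psma5 alone had −0.06 (adjusted p = 0.692). Whether the pseudogene values are reads of Psma5 was not tested.

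**Figure D2:**
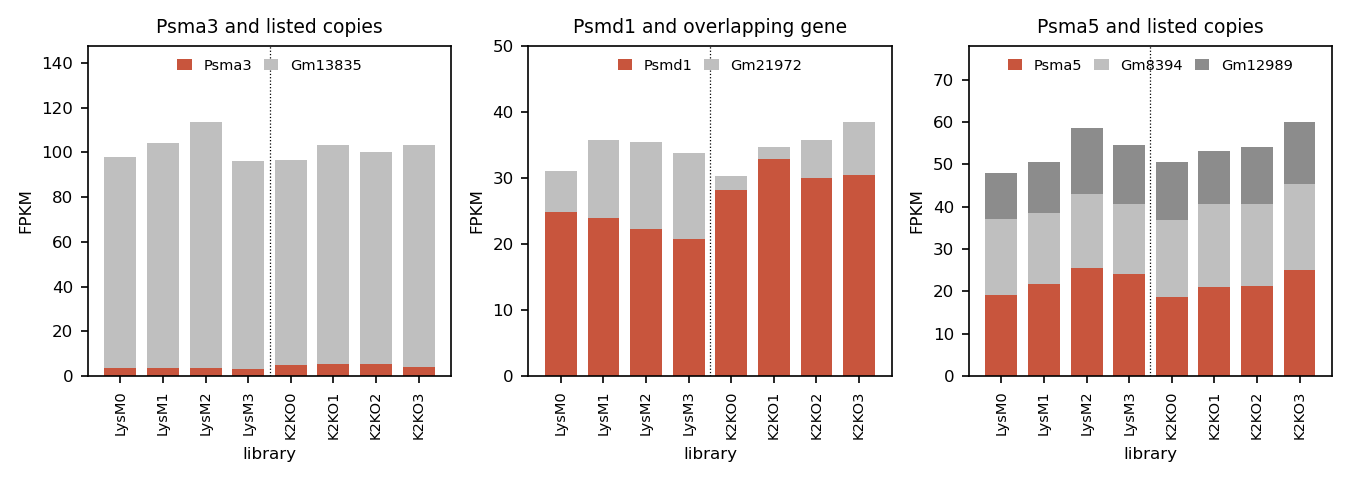
FPKM (vertical axis, from 0) of Psma3, Psmd1 and Psma5 in each of the 8 libraries (horizontal axis), with the listed copies or overlapping gene that share their sequence stacked on top in grey; the dotted line parts the groups. Psma3 and Psmd1 are higher in every K2KO library, but the full columns overlap between groups, and Gm13835 makes up most of the Psma3 column.

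None of the 3 inducible subunits was called. Psmb8 (chr17:34197721-34201454, plus strand), which takes the place of Psmb5, was at 117, 153, 164 and 170 FPKM in LysM and at 163, 129, 168 and 197 FPKM in K2KO. The groups overlapped, with LysM0 the lowest and K2KO3 the highest of all libraries. Its log2 fold change was 0.12 (SE 0.15, adjusted p = 0.585). Psmb9 (chr17:34181987-34187764, minus strand), which takes the place of Psmb6, was at 51.0, 77.4, 75.8 and 86.8 FPKM in LysM and at 68.5, 48.3, 62.8 and 85.9 FPKM in K2KO. Its log2 fold change was −0.14 (SE 0.20, adjusted p = 0.640), and all K2KO libraries but K2KO1 lay within the LysM range. Psmb9 shares 212 exon bases with Tap1 on the other strand, and whether strand was used in the FPKM is not stated, so reads there cannot be told apart. Psmb10 (chr8:105935735-105938444, minus strand), which takes the place of Psmb7, was at 83.6, 106, 105 and 123 FPKM in LysM and at 76.3, 68.6, 80.0 and 102 FPKM in K2KO. The groups overlapped through LysM0 and K2KO3, and the log2 fold change was −0.35 (SE 0.14, adjusted p = 0.104).

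A ratio within a library does not change when the whole library is multiplied by one factor, and so each inducible subunit was set against the subunit it replaces. The ratio of Psmb8 to Psmb5 was 1.015 ± 0.187 in LysM and 1.29 ± 0.184 in K2KO, a log2 difference of 0.35 (exact two-sided permutation test, p = 0.0857, adjusted over the 3 ratios p = 0.214). In LysM the ratios were 0.757, 1.02, 1.09 and 1.20, and in K2KO 1.43, 1.02, 1.32 and 1.39. Only K2KO1 lay within the LysM range. Psmb5 enters this ratio without its pseudogene Gm3375, and the ratio with Gm3375 added was not computed. The difference fell to 0.23 with GC content and length corrected for, and to 0.22 without LysM0. The ratio of Psmb9 to Psmb6 was 0.247 ± 0.0524 in LysM and 0.241 ± 0.0432 in K2KO (exact permutation p = 0.886, adjusted p = 0.886). Its log2 difference of −0.023 changed sign without LysM1, LysM2, LysM3 or K2KO1, running from −0.19 to 0.10 with 1 library left out. That of Psmb10 to Psmb7 was 1.31 ± 0.231 and 1.09 ± 0.146, a log2 difference of −0.25 (exact permutation p = 0.143, adjusted p = 0.214), which turned to 0.074 with GC content and length corrected for. No ratio passed the test, for which 4 against 4 libraries allow no p under 0.0286.

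PA28 is built from Psme1 and Psme2, which interferon induces, while Psme3 codes for a nuclear form and Psme4 for the separate activator PA200. Psme1 was at 145, 188, 199 and 225 FPKM in LysM and at 132, 117, 155 and 196 FPKM in K2KO. Psme2 was at 50.7, 66.5, 75.4 and 73.8 FPKM in LysM and at 47.9, 42.6, 56.1 and 67.7 FPKM in K2KO. In both genes LysM0 was the lowest LysM library and K2KO3 the highest K2KO library, and the groups overlapped. Their log2 fold changes were −0.35 (SE 0.18, adjusted p = 0.176) and −0.32 (SE 0.16, adjusted p = 0.182). Psme3 was at 28.4, 30.3, 26.9 and 26.8 FPKM in LysM and at 28.9, 30.8, 30.8 and 30.6 FPKM in K2KO, with a log2 fold change of 0.11 (adjusted p = 0.195). Psme4 was at 7.81, 7.16, 7.71 and 7.53 FPKM in LysM and at 8.15, 8.75, 9.22 and 7.59 FPKM in K2KO. Only K2KO3 fell inside the LysM range, and the log2 fold change was 0.15 (adjusted p = 0.143). Psmf1, which codes for the inhibitor PI31, was at 12.1, 10.3, 8.92 and 10.6 FPKM in LysM and at 10.97, 12.3, 11.1 and 11.2 FPKM in K2KO (log2 fold change 0.13, adjusted p = 0.319).

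Psme2 has a retrogene, Psme2b, an intronless copy that is annotated as protein coding. Psme2 lies at chr14:55587441-55591113 and Psme2b at chr11:48945354-48946190, both on the minus strand, and the coding sequence of Psme2 differs from the copy at 5 of 717 bases. Positions 484 to 543 hold 3 of these differences, in capitals.
Psme2: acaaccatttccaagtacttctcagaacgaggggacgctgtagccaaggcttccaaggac
Psme2b: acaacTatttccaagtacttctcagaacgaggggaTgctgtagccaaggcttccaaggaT
Psme2b was listed at 149 ± 16.1 FPKM in LysM and 134 ± 22.5 in K2KO, above Psme2 itself. The sum of both was 216 ± 27.3 and 187 ± 33.1 FPKM, with a log2 fold change of −0.21 (SE 0.14, limma adjusted p = 0.281), and neither gene nor the sum was called.

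**Figure D3:**
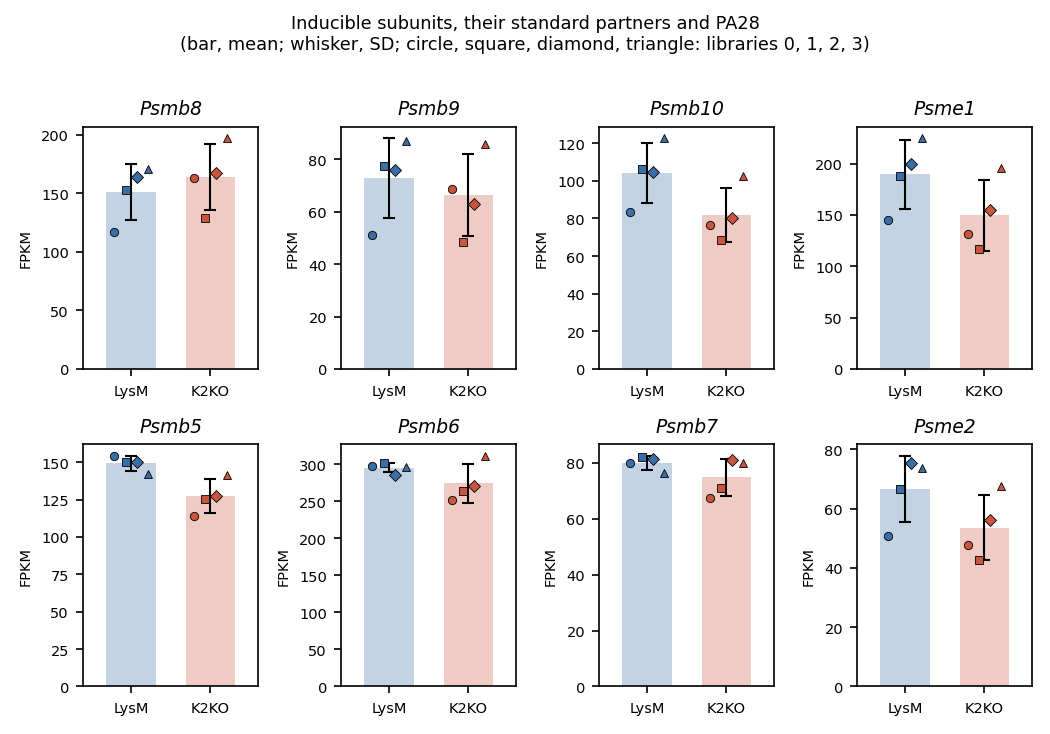
FPKM (vertical axes, from 0) of the inducible subunits and Psme1 (top row) and of the standard partners and Psme2 (bottom row) in LysM and K2KO; bars are means, whiskers SDs (n = 4) and symbols the libraries 0 to 3. K2KO3, the triangle, is the highest K2KO library in all panels but that of Psmb7, and only Psmb5 separates the groups.

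The interferon-inducible members ranked the libraries of each group in much the same order. For Psmb8, Psmb9, Psmb10, Psme1 and Psme2, LysM0 was the lowest LysM library in 5 of 5 and LysM3 the highest in 4 of 5, while K2KO1 was the lowest K2KO library in 5 of 5 and K2KO3 the highest in 5 of 5. Of 10 genes of interferon-inducible antigen presentation outside the proteasome, the same libraries held these places in 9, 8, 8 and 8. For the 15 alpha and standard beta subunits, LysM0 was the lowest LysM library in 9, LysM3 the highest in 2, K2KO1 the lowest K2KO library in 4 and K2KO3 the highest in 8. Of the 10 presentation genes 1 was called, beside 18.4% of all tested genes. Erap1, a peptide-trimming enzyme, was called higher, with 7.55, 8.15, 7.46 and 7.27 FPKM in LysM and 10.1, 10.5, 9.75 and 8.46 FPKM in K2KO (log2 fold change 0.34, adjusted p = 0.0197). The call of Erap1 was lost with GC content and length corrected for (0.14, limma adjusted p = 0.170) and was made in 4 of the 8 fits with 1 library left out. The other 9 were not called. Those with the highest levels were B2m (log2 fold change 0.22, adjusted p = 0.0965) and H2-D1 (0.03, adjusted p = 0.866), which code for chains of MHC class I. Quantile normalization called 4 of the 10 higher, beside 835 of all 10920 tested genes. It added B2m (0.33, limma adjusted p = 0.00661), H2-D1 (0.28, adjusted p = 0.0174) and H2-K1 (0.40, adjusted p = 0.0247) to Erap1.

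The 20S assembly chaperones were the class with the lowest median. Psmg1 and Psmg2 form one dimer and Psmg3 and Psmg4 another, and both guide assembly of the alpha ring. All 4 were below 0, with a median log2 fold change of −0.34, and 2 of the 4 were called lower, as 8.61% of all tested genes were. Psmg3 (chr5:139823592-139826885, minus strand) was at 29.0, 33.8, 37.1 and 38.9 FPKM in LysM and at 18.5, 22.3, 24.8 and 29.4 FPKM in K2KO. The groups overlapped only in that K2KO3 lay above LysM0. It had the largest change among the members, a log2 fold change of −0.56 (SE 0.14, limma adjusted p = 0.0283). Psmg2 (chr18:67641599-67654162, plus strand) was at 27.5, 33.4, 26.6 and 26.1 FPKM in LysM and at 20.5, 22.5, 23.1 and 22.9 FPKM in K2KO. Its groups did not overlap, and the log2 fold change was −0.35 (SE 0.085, adjusted p = 0.0260). Psmg1 (−0.29, adjusted p = 0.0533) and Psmg4 (−0.34, adjusted p = 0.140) did not pass. With GC content and length corrected for, Psmg2 (−0.32) and Psmg3 (−0.52) were again called lower, and with Psma3 and Psmd1 made up all 4 called members, where 9.06% of all tested genes were called and 4.34% called lower. Quantile normalization also called both, at −0.32 and −0.52, and Psmg1, where it called 14% of all tested genes and 6.4% lower. With 1 library left out, Psmg2 was called in 3 of 8 fits and Psmg3 in 2, and neither was called by ordinary least squares or with no filter on low values. The chaperones summed to 136 ± 16.2 FPKM in LysM and 104 ± 12.3 in K2KO, where all listed genes summed to 531755 ± 23776 and 473577 ± 23980. Pomp, the chaperone of the beta ring, was not called (log2 fold change −0.10, adjusted p = 0.572).

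In the 19S particle, 1 gene was called higher and 1 lower of 17, both in the base, beside 9.84% and 8.61% of all tested genes. Psmd4 (chr3:95032694-95042614, minus strand) codes for a receptor that binds ubiquitin chains. It was at 106, 126, 124 and 125 FPKM in LysM and at 86.9, 90.5, 98.7 and 110 FPKM in K2KO, and K2KO3 alone exceeded a LysM library, LysM0. Its log2 fold change was −0.32 (SE 0.091, limma adjusted p = 0.0376). It was no longer called under quantile normalization (−0.17, limma adjusted p = 0.0914) or with GC content and length corrected for (−0.24, adjusted p = 0.0753). Psmd1 (chr1:86064387-86139151, plus strand) codes for a large scaffold subunit of the base. It was at 24.8, 23.9, 22.3 and 20.7 FPKM in LysM and at 28.2, 33.0, 30.0 and 30.4 FPKM in K2KO. All K2KO libraries were above all LysM libraries, and the log2 fold change was 0.40 (SE 0.074, adjusted p = 0.0126).

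Psmd1 shares 301 exon bases on the same strand with Gm21972, a gene model at chr1:86133637-86162788. Gm21972 was listed at 6.27, 11.9, 13.2 and 13.2 FPKM in LysM and at 2.17, 1.85, 5.85 and 8.12 FPKM in K2KO, and it was itself called lower (log2 fold change −1.49, SE 0.46, adjusted p = 0.0491), a call that was lost with GC content and length corrected for (−1.38, limma adjusted p = 0.0723) and made in 2 of the 8 fits with 1 library left out. The sum of Psmd1 and Gm21972 was 34.1 ± 2.16 FPKM in LysM and 34.9 ± 3.40 in K2KO, with a log2 fold change of 0.03 (SE 0.082, limma adjusted p = 0.812). Gm21972 is an overlapping gene and not a copy of Psmd1, and the sum joins changes in opposite directions, so it does not say which gene the shared reads came from. With near-identical copies summed, Gm21972 counted among them, 0 members were called higher by limma (0 at an unadjusted p under 0.05), and Psmd4, Psmg2 and Psmg3 were called lower, while 18.4% of all tested genes were called and 8.61% called lower. The sum for Psma3 is mostly Gm13835, as said above, and can barely follow a change of Psma3 alone. Count-based tools were not run, since FPKM are not counts. In all, 13 members share exon bases with another listed gene, 3 of them on the same strand (Psmd1, Psme2b and Psmg3).

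The 6 ATPases of the base (Psmc1 to Psmc6) had a median log2 fold change of −0.07, with 5 below 0 and none called, and ran from −0.19 (Psmc3) to 0.17 (Psmc6). In the lid, 3 of 8 were below 0 and the median was 0.07. Psmd13 (−0.25, adjusted p = 0.0722) and Psmd3 (−0.19, adjusted p = 0.0707) stood at one end. Psmd14, the deubiquitinase of the lid, stood at the other with 0.15 (adjusted p = 0.138). Of the 19S assembly chaperones, Psmd9 had −0.18, Psmd10 −0.07 and Psmd5 0.14, and none was called. Summed over base and lid, the level was 1162 ± 39.9 FPKM in LysM and 1098 ± 85.1 in K2KO, and the sum over the alpha and standard beta subunits was 1633 ± 57.8 and 1469 ± 121. Psma3 enters the latter sum without Gm13835. Over all listed genes FPKM summed to 531755 ± 23776 in LysM and 473577 ± 23980 in K2KO, so the total was lower in K2KO too.

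**Figure D4:**
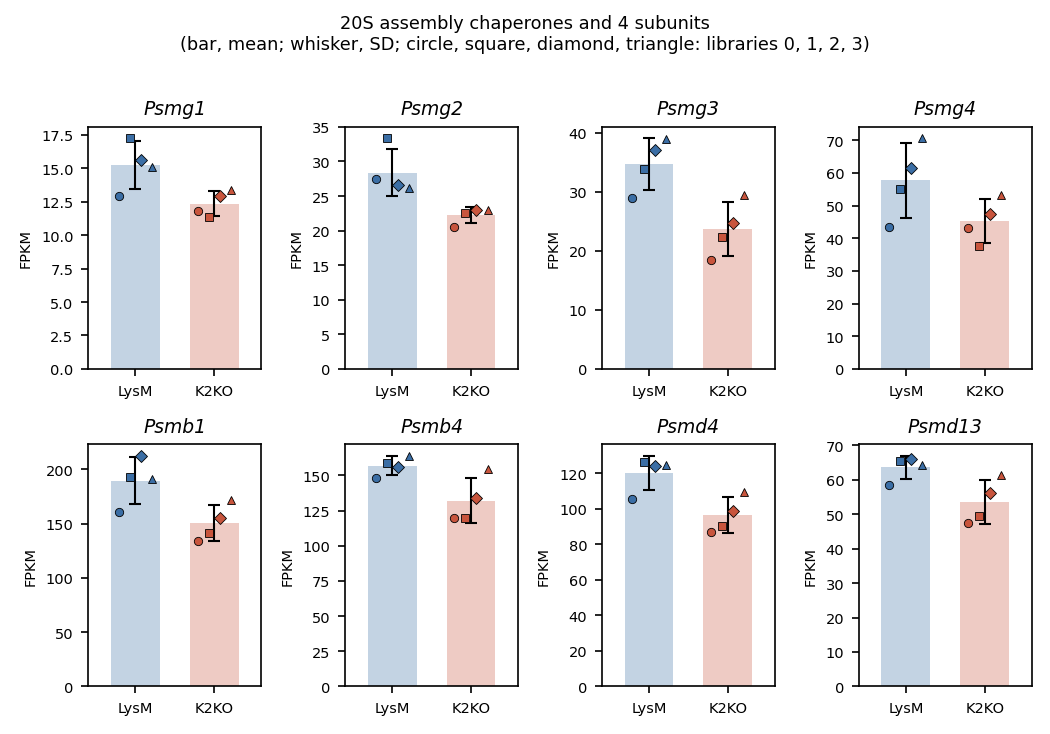
FPKM (vertical axes, from 0) of the 4 core chaperones (top row) and of Psmb1, Psmb4, Psmd4 and Psmd13 (bottom row) in LysM and K2KO; bars are means, whiskers SDs (n = 4) and symbols the libraries 0 to 3. The K2KO mean lies below the LysM mean in all 8 panels, the groups are apart only for Psmg2, and K2KO3 stands at or near the top of the K2KO libraries.

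Libraries of one group did not weigh alike. K2KO0 lay below all 4 LysM libraries for 31 of the 48 tested members, K2KO1 for 27, K2KO2 for 16 and K2KO3 for 2, where the shares of all tested genes were 33.7%, 31.6%, 25.5% and 22.5%. They lay above all 4 LysM libraries for 5, 11, 11 and 11 members, and for 29.9%, 37.3%, 37.2% and 25.9% of all tested genes. K2KO3 was the highest K2KO library for 28 members, and LysM0 the lowest LysM library for 29. These ranks were not counted over all tested genes. LysM0 also had the lowest FPKM total of the LysM libraries (497253) and K2KO3 the highest of the K2KO libraries (501965). The median deviation of the 48 tested members from the LysM mean was −0.24, −0.17, −0.01 and 0.03 (log2) in K2KO0 to K2KO3, where that of all tested genes was −0.02, 0.02, 0.05 and 0.01. Without K2KO3, 12 members were called lower, beside 12.6% of all tested genes. These were Psmb1, Psmb3, Psmb4, Psmb5, Psmb10, Psmc3, Psmd4, Psmd13, Psme1, Psmg1, Psmg2 and Psmg3. In all, 26.2% of tested genes were then called. Without LysM0, 7 members were called lower, beside 11% of tested genes and 21.9% called either way. Without LysM2, Psmg2 alone was called lower, and 0 were when any one of LysM1, LysM3, K2KO0, K2KO1 and K2KO2 was left out. Each of the 3 calls of lower members is thus lost with some single library. Calls over all tested genes, either way, fell in the same fits. They went from 2014 to 1111 without LysM2, and to between 543 and 823 without any one of the 5 libraries just named. The loss of calls was therefore not particular to the members. Psmd1 and Psma3 were called higher in all 8 of these fits. With no filter on low values they were the 2 members called and 0 were lower, beside 2.03% of all 23761 genes called and 0.859% called lower.

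**Figure D5:**
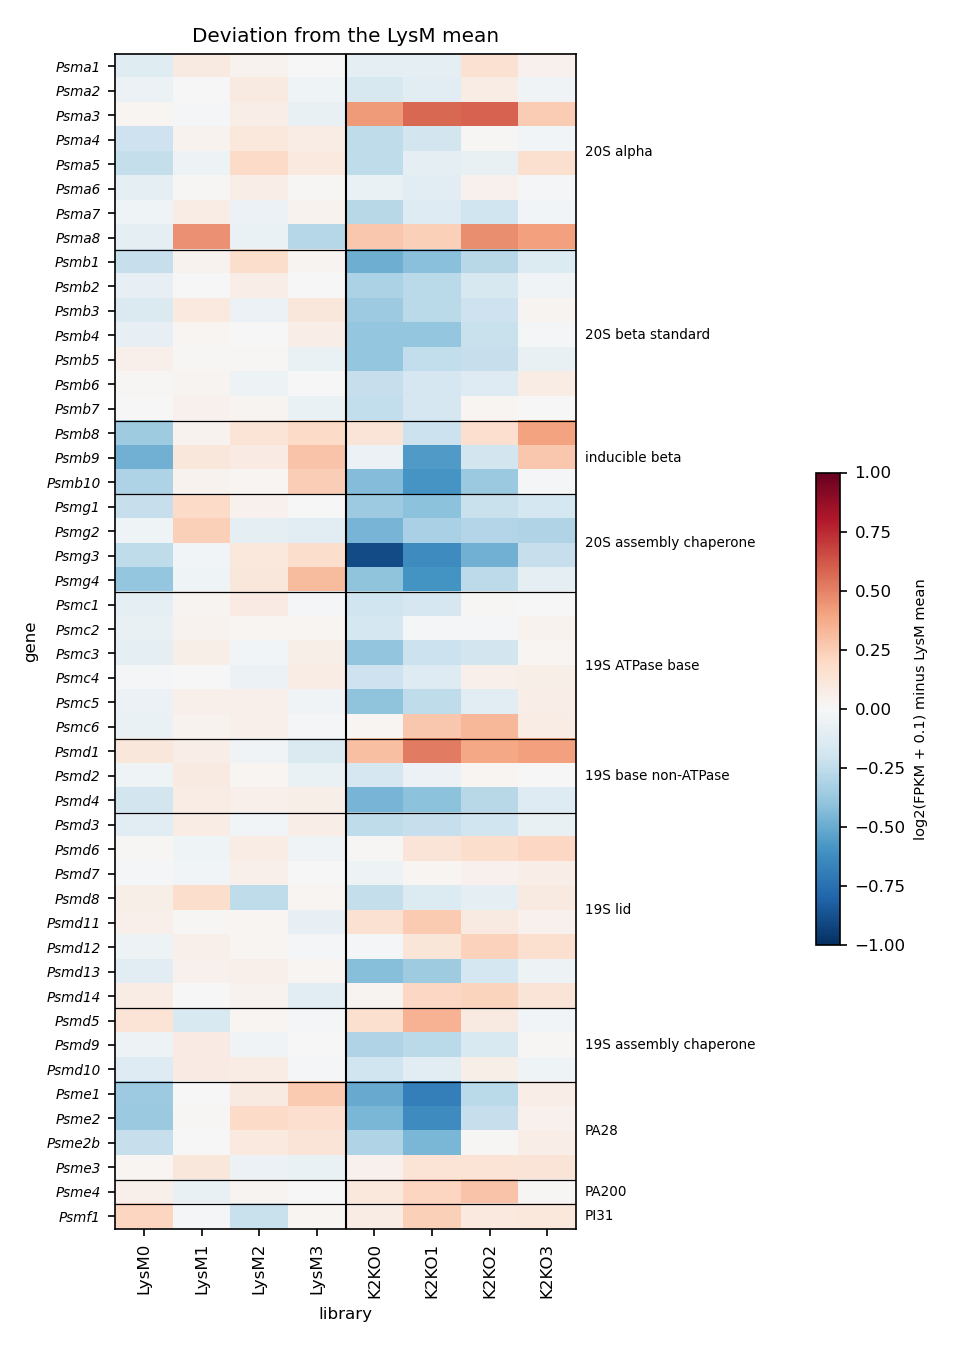
Deviation of each of the 48 tested genes (rows, by class) from its LysM mean on log2(FPKM + 0.1) in each library (columns); colours run from −1 (blue) to 1 (red), and the black vertical line parts the groups. The K2KO0 and K2KO1 columns are blue for the standard beta subunits, the core chaperones and Psme1 and Psme2, the K2KO3 column is pale, and the rows of Psma3 and Psmd1 are red in every K2KO library.

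Genes that feed or control the proteasome were looked at as lists. Of 11 listed genes for other proteasome parts and partners, 0 were called by limma, beside 18.4% of all tested genes. At an unadjusted p under 0.05, 4 of the 11 passed, beside 37.8% of all tested genes. The genes of this list with the highest levels were Pomp, given above, and Sem1, a small lid protein (log2 fold change −0.24, adjusted p = 0.162). Of 6 genes for ubiquitin and its activation, 0 were called by limma (2 at an unadjusted p under 0.05), with Ubb, the most abundant, at −0.12 (adjusted p = 0.337). No count test was run on either list.

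Among 10 genes for shuttles that carry tagged proteins to the proteasome and for the unfoldase p97, 2 were called higher, beside 9.84% of all tested genes. Rad23b was at 17.2, 16.7, 17.5 and 15.4 FPKM in LysM and at 20.6, 22.4, 20.98 and 18.8 FPKM in K2KO (log2 fold change 0.31, SE 0.070, adjusted p = 0.0208). The groups did not overlap. Ubqln2, another shuttle, was called higher (0.29, adjusted p = 0.0325). Vcp, which codes for p97, had a log2 fold change of −0.07 (adjusted p = 0.527) and Nsfl1c, a p97 cofactor, of −0.16 (adjusted p = 0.154). With GC content and length corrected for, limma called Ubqln2 (0.28, adjusted p = 0.0426) but not Rad23b, whose log2 fold change of 0.23 lay under the fold limit. With 1 library left out, Rad23b was called in 3 of 8 fits and Ubqln2 in 2.

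Of 11 genes for regulators of proteasome transcription, 1 was called, beside 18.4% of all tested genes. Nfe2l2, which codes for the antioxidant factor NRF2, was at 83.4, 75.1, 69.0 and 70.2 FPKM in LysM and at 91.8, 97.7, 95.5 and 80.7 FPKM in K2KO. Only K2KO3 lay within the LysM range, and the log2 fold change was 0.30 (SE 0.084, adjusted p = 0.0380). Nfe2l2 was not called with GC content and length corrected for (0.27, limma adjusted p = 0.0752), and was called in 2 of the 8 fits with 1 library left out. Nfe2l1, whose product NRF1 restores proteasome genes when the protease is blocked, had −0.05 (adjusted p = 0.619), and Mafg, a partner of both, 0.07 (adjusted p = 0.594).

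Promoters were read for letters that these factors and interferon factors are known to bind. RefSeq promoters (GRCm38.p6, 250 bases before to 50 after the start) were at hand for 41 of the 49 members, and both strands were searched. The antioxidant core TGACNNNGC was in 6 members (14.6%) and in 13.99% of all 27025 genes with a promoter. The CCAAT box was in 14 members (34.2%) and 41.1% of all genes, the STAT-type motif TTCNNNGAA in 3 (7.32%) and 9.55%, and the interferon-type repeat (GAAA, any 2 bases, GAAA) in 5 (12.2%) and 3.99%. Those 5 were Psmb3, Psmd4, Psmd9, Psme1 and Psmg4. Matches of different motifs may overlap. The promoter of Psmd4, called lower, is printed with its matches in capitals, which are CCAAT on either strand and the interferon-type repeat (chr3:95042565-95042864, minus strand). That of Psmb5, whose groups did not overlap, holds the antioxidant core (chr14:54617946-54618245, minus strand).
Psmd4: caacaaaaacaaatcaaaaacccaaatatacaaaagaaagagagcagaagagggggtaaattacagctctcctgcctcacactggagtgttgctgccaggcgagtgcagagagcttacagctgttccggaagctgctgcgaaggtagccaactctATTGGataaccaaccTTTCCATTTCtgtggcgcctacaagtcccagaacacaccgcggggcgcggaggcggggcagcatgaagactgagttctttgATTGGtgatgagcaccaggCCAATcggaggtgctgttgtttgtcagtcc
Psmb5: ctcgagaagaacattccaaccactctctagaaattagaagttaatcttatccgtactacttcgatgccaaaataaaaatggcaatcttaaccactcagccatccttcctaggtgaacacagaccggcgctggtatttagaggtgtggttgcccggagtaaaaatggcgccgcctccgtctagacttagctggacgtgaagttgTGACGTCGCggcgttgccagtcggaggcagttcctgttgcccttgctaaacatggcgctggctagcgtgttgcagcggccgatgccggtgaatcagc
A match is a description of the letters in the window and says nothing of a factor at the site.

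In a bulk sample, fewer cells of a type and less RNA per cell cannot be told apart, so markers of other cells were read beside these results. Of 8 macrophage markers 2 were called, beside 18.4% of all tested genes. Mertk was called higher (log2 fold change 0.36, adjusted p = 0.0285) and Lyz2, the gene at which Cre is placed, lower (−0.49, adjusted p = 0.0260). Neither was called with GC content and length corrected for (Mertk 0.29, limma adjusted p = 0.0588, and Lyz2 −0.45, adjusted p = 0.0527). With 1 library left out Mertk was called in 2 of 8 fits and Lyz2 in 4. Both groups carry Cre on both alleles at Lyz2, which was listed at only 18.6 ± 2.88 FPKM in LysM and 13.2 ± 1.73 in K2KO. Its level therefore cannot be read as a measure of macrophage content here. Neutrophil markers summed to between 137 and 257 FPKM in LysM and between 143 and 247 FPKM in K2KO, with S100a9 (132 ± 32.5 and 127 ± 34.7 FPKM) and S100a8 most abundant, Ly6g at or under 0.357 FPKM in all libraries, and 0 of 5 tested called by limma or at an unadjusted p under 0.05. Fibroblast markers summed to 0.617 ± 0.535 FPKM in LysM and 1.72 ± 1.23 in K2KO, with Dcn highest. T and NK cell markers summed to 0.495 ± 0.144 and 0.883 ± 0.342, dendritic cell markers to 0.934 ± 0.410 and 1.63 ± 0.670, mast cell markers to 0.376 ± 0.154 and 0.763 ± 0.236, and erythroid markers, with Hbb-bt listed at 0 throughout, to 0.693 ± 0.440 and 0.974 ± 0.311. No gene of these lists reached the limit of 1 FPKM. Of the B cell markers Cd79b alone did, with 2.13 ± 0.630 FPKM in LysM and 2.81 ± 0.301 in K2KO (log2 fold change 0.42, adjusted p = 0.146). Of 8 cycling genes 5 were tested and 0 called by limma (1 at an unadjusted p under 0.05), with Pcna at 0.21 (adjusted p = 0.283) and Mcm2 at −0.21 (adjusted p = 0.0916). Of all tested genes, 37.8% had an unadjusted p under 0.05. Gapdh, the control gene of the study's PCR, was listed at 0.179 ± 0.130 FPKM in LysM and 0.356 ± 0.121 in K2KO. A listed value near 0 therefore need not mean low expression. The part of other cells in the proteasome results was not tested.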

How the data were processed

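RNA of BMDMs from 4 LysM and 4 K2KO mice was sequenced from TruSeq Stranded Total RNA libraries. The authors deposited 1 table of FPKM for 23761 genes, computed with Cufflinks after alignment to mm10. The methods of the study name TopHat2 as the aligner, while the submitters' processing notes name STAR, Cufflinks and Cuffdiff, and versions, annotation, filter and use of strand are not given in the sources used here. The labels name another RNA kit than the methods do. The columns name the genotype and a number from 0, while sample titles count from 1.

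FPKM were tested as log2(FPKM + 0.1), which understates the change of low genes, for the 10920 genes with a mean of at least 1 FPKM, with limma 3.58.1 (lmFit, eBayes with an intensity trend, R 4.3.3) and Benjamini-Hochberg adjustment over all of them. A gene was called where its adjusted p was below 0.05 and its log2 fold change beyond 0.26 either way. For the 3 ratios a two-sided exact permutation test ran over all 35 splits. Errors are SDs over libraries (n = 4). FPKM carry no counts, so no counting error could be given. Positions, GC content, transcript length and copies (blastn 2.17.0, at least 95% identity over at least 200 bases) came from GENCODE M21 on GRCm38, which held 23645 of the listed genes and all 49 members. The fit was tested on simulated data in which 200 of 10920 genes were changed. It recovered 32.5% of them at a log2 change of 0.4, with 5 false calls, and 86% at 1, with 2 false calls. A gene that was not called may therefore still differ between the groups. The simulated noise was drawn for each gene on its own, with no shift shared by the genes of a library. Fewer genes were changed than were called in the data (2014). The shares recovered and the false calls may thus differ in the real fit.

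By rule, members described with every library are the inducible subunits, their standard partners, Psme1 to Psme4, Psmf1 and up to 3 called members per class, and Klf2 is given as the label check. Library values of Gm13835, Gm21972 and some genes of the related lists were added with their values in view. From each related list up to 3 called genes by adjusted p and up to 2 others by mean FPKM are named. Other genes named by class position, motif or library were picked with their values in view. The members, lists and tests were chosen with earlier results of these data known. Alternatives were other pseudocounts and filters, quantile and upper-quartile scaling, limma without trend, ordinary least squares, no fold limit, a correction for GC content and length, a block on the column number, and each library left out. Summing near-identical copies, with Gm21972 for the stretch it shares with Psmd1, was chosen after seeing the data. A few genes of the related lists are not reported here.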

Additional observations from a re-analysis of the deposited data

Results flagged for a closer look

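In 2 of 104 groups of 4 libraries, 1 library stood far from the other 3 by Dixon's criterion, where chance gives about 1 in 20 groups, or 5.2. Psmd4 was at 105.748 FPKM in LysM0, where the other LysM libraries lay between 124 and 126 FPKM. Psme3 was at 28.9453 FPKM in K2KO0, where the other K2KO libraries lay between 30.6 and 30.8 FPKM.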

How the results depend on the processing

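Of 979 values of single genes under alternatives, 933 stayed on their side of the threshold, 28 lost and 17 gained a call, and 1 reversed. The reversed value was the log2 fold change of Psma3, which was −0.021 with copies summed, a sum made up mostly of Gm13835. Of 862 values not called either way, 37 changed sign. Calls over all tested genes numbered 2014. They numbered 483 with no filter, 746 by ordinary least squares, 989 after the correction for GC content and length, and 543 to 2863 with 1 library left out. Upper-quartile scaling gave 1504 higher and 564 lower where the unscaled values gave 1074 and 940. Members called numbered 5, against 2 with no filter, 2 by ordinary least squares, 3 with copies summed (Gm21972, which overlaps Psmd1, included), and 2 to 14 with 1 library left out (2 higher in each of these fits, 0 to 12 lower). The ratio of Psmb10 to Psmb7 turned to a log2 difference of 0.074 after the correction for GC content and length. With 1 library left out, that of Psmb9 to Psmb6 ran from −0.19 to 0.10, that of Psmb8 to Psmb5 from 0.22 to 0.46, and that of Psmb10 to Psmb7 from −0.36 to −0.15, and none reached an exact permutation p under 0.0571. The causes of these changes were not tested.

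Whether libraries of the same column number were paired is not stated in the sources used here. Same-numbered residuals correlated at −0.07, 0.02, 0.07 and −0.06. Those of unlike numbers lay between −0.14 (LysM3 with K2KO1) and 0.18 (LysM0 with K2KO1). Such correlations cannot show whether the mice were handled in pairs. With the number as a replicate block, 2057 of all tested genes and 7 members were called, adding Psmb1 and Psmb10, and with the block and the correction for GC content and length 5 members and 923 of all tested genes. Values of low genes are the least certain, and how many reads lie behind them is unknown.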
